A study of Mus musculus with 5 samples.

Results

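The Hox genes encode homeodomain transcription factors and lie in 4 clusters, Hoxa, Hoxb, Hoxc and Hoxd. Genes at the same position of different clusters are paralogues and carry the same number. Low numbers are switched on first and furthest towards the head, and high numbers later and towards the tail. In undifferentiated ESCs the clusters are held largely silent by Polycomb group proteins, and retinoic acid and the Cdx factors are known to open them during differentiation. The genes described are those whose name on the array is Hoxa, Hoxb, Hoxc or Hoxd followed by a number, and the rule used no measured value. This gave 49 of the 41174 probes and 38 of the 27962 gene names, 11 of Hoxa, 10 of Hoxb, 8 of Hoxc and 9 of Hoxd. Of these genes, 27 had 1 probe and 11 had 2. By paralogue group, 12 genes were anterior (1 to 4), 11 central (5 to 8) and 15 posterior (9 to 13). Hoxc11 is not analysed here. On mm7, the mouse build of the array, the Hoxa probes spanned chr6:52119024-52222444, those of Hoxb chr11:96304167-96476235, those of Hoxc chr15:102914520-103022308 and those of Hoxd chr2:74513664-74608718. Hoxa is read from the minus strand and the others from the plus strand.

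RNA of 5 mouse ESC lines was hybridized to 1 one-colour Agilent array each. Wild-type ESCs were represented by 2 lines. RF8 is of 129sv origin and labelled male, and #620-2 is of C57BL6/129sv origin and labelled female. ECAT11EGFP/EGFP ESCs were represented by 3 lines of C57BL6/129sv origin, the female #620-6 and the male #757-1 and #757-2, in which EGFP replaces the coding region of ECAT11, a transcript enriched in ESCs. All were grown with LIF on gelatin without further treatment. Each line is 1 replicate, so the spread within a group is that between lines, and the number of arrays limits the precision. RF8, #620-2 and #620-6 shared slide 1, and #757-1 and #757-2 shared slide 2. Values are log2 signals relative to the 75th percentile of the array. A probe counted as detected when the extraction software put it well above background. The lowest signal so marked lay between -6.23 and -5.91 on slide 1 and was -4.50 for #757-1 and -4.23 for #757-2, so a weak gene could be detected on slide 1 and missed on slide 2. All 9 ESC markers measured, among them Pou5f1, Sox2 and Nanog, were detected in all 5 lines.

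The number of Hox genes detected differed between lines. Of the 38 genes, 13 (34.2%) were detected in RF8, 22 (57.9%) in #620-2, 22 (57.9%) in #620-6, 8 (21.1%) in #757-1 and 7 (18.4%) in #757-2. Of all probes, RF8 had 64.5% detected, #620-2 64.1%, #620-6 66.1%, #757-1 53.7% and #757-2 51.7%. The shares of Hox genes and of probes are not on the same unit, since a gene with 2 probes counted as detected by either. With 1 limit for all lines, the highest of the 5 (-4.23), the counts were 9 in RF8, 12 in #620-2, 9 in #620-6, 7 in #757-1 and 7 in #757-2. Of all probes, 53.1%, 53.3%, 53.4%, 52.5% and 51.6% were then detected in the same order. The lines of slide 1 thus kept the higher Hox counts, by a smaller margin. In all, 24 genes were detected in at least 1 line and 14 in none, while 29.4% of all probes were detected in no line. The 14 were Hoxa13, Hoxb3, Hoxb4, Hoxb5, Hoxc5, Hoxc8, Hoxc10, Hoxc12, Hoxc13, Hoxd3, Hoxd4, Hoxd8, Hoxd11 and Hoxd12. A gene below the limit was not detectable with these arrays, which does not show that it was absent.

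**Figure D1:**
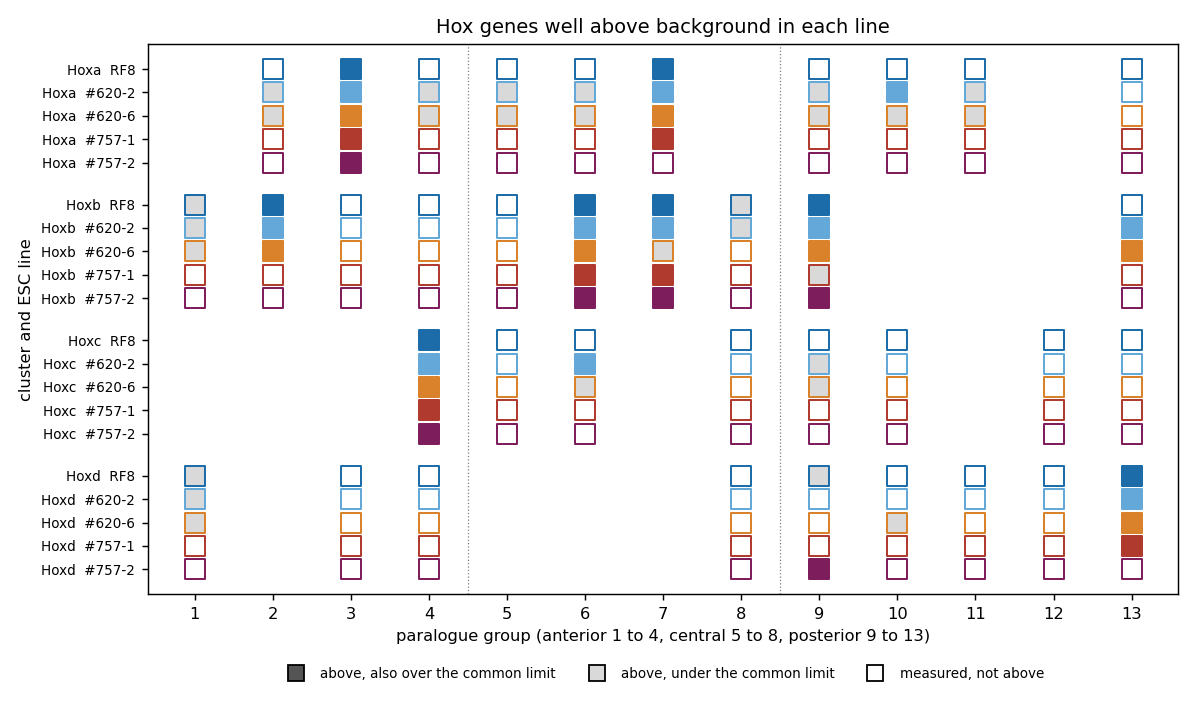
Detection of Hox genes, by paralogue group on the x axis and by cluster and ESC line on the y axis. Filled squares mark genes detected at or over the common limit of -4.23, grey squares genes detected under it (for Hoxb1, in a single outlier spot), open squares genes measured and not detected. Grey squares of Hoxa fill the rows of #620-2 and #620-6 and no other row.

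Hoxa held most of the difference between lines. Of its 11 genes, 10 were detected in #620-2 and in #620-6, against 3 in RF8, 3 in #757-1 and 2 in #757-2. Hoxb had 6 of 10 genes detected in RF8, 7 in #620-2, 6 in #620-6 and 3 in each of #757-1 and #757-2. Hoxc had 1 of 8 in RF8, #757-1 and #757-2 and 3 in #620-2 and #620-6. Hoxd had between 1 and 3 of 9 in every line. With the common limit, Hoxa had 3, 4, 3, 3 and 2 genes detected in RF8, #620-2, #620-6, #757-1 and #757-2, so the gap in Hoxa rested on signals under that limit.

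By paralogue group, 6 of 12 anterior genes were detected in RF8, 8 in #620-2, 8 in #620-6 and 3 in each line of slide 2. Central genes numbered 4, 7, 6, 3 and 2 of 11 in the same order of lines, and posterior genes 3, 7, 8, 2 and 2 of 15. Genes detected in no line numbered 4 anterior, 4 central and 6 posterior. Each group thus held both detected and undetected genes. Counted together, the anterior and central genes numbered 10, 15, 14, 6 and 5 of 23.

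**Figure D2:**
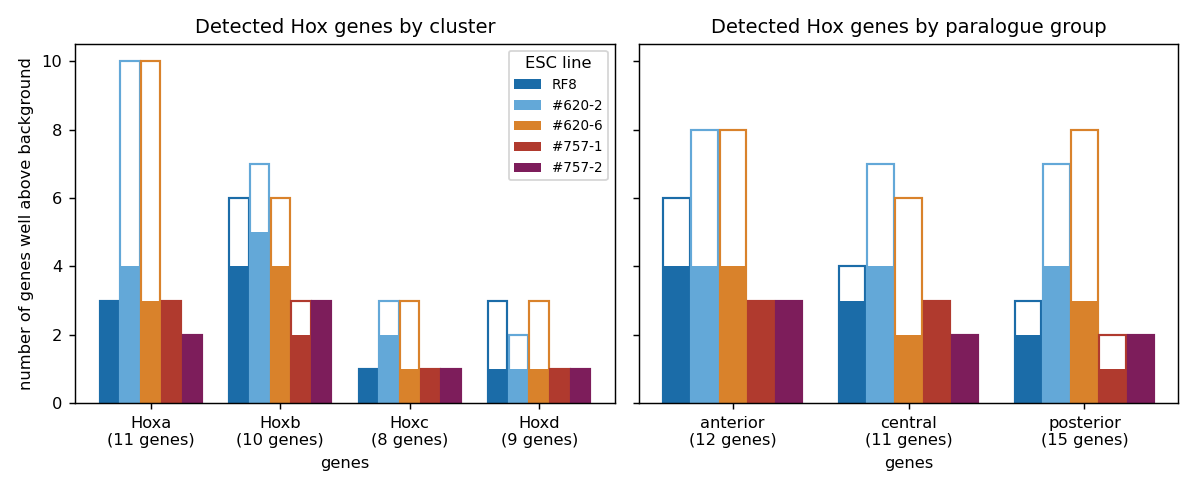
Number of Hox genes detected per line, by cluster on the left and by paralogue group on the right. The whole bar is the count with each array's own limit and the filled bar the count with the common limit of -4.23. Hoxa reaches 10 genes in #620-2 and #620-6 with their own limits.

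The genes detected throughout were a small set. Hoxa3, Hoxb6, Hoxb7 and Hoxc4 each had a probe detected in all 5 lines, as did 50.2% of all probes. Hoxc4 had -2.93, -3.19, -3.29, -2.73 and -2.95 in RF8, #620-2, #620-6, #757-1 and #757-2, a range of 0.56 with overlapping genotypes. Hoxa3, needed for thymus and parathyroid development, had -3.38, -3.73, -3.70, -3.29 and -3.29 with 1 probe, a range of 0.45. Its other probe, 666 bases away, was detected in no line.
Hoxb6 had -2.83, -2.97, -3.16, -2.40 and -2.99 with 1 probe. Its other probe, 2282 bases away, was detected in slide 1 only (-5.51, -4.61 and -5.43). The 2 probes therefore did not give the same picture of the gene.
Hoxb9 was detected in all 5 lines by either of its 2 probes and in 4 lines by each, with -3.97, -3.25, -2.75, -4.32 and -4.53 for one and -3.60, -2.65, -2.56, -4.60 and -3.90 for the other. Both probes of Hoxb9 were highest in #620-6. The genotype differences of the probes detected in all 5 lines ran from -1.31 for Hoxb7 to 0.13 for Hoxa3. Of the 11 genes with 2 probes, Hoxa3, Hoxa4, Hoxb6, Hoxb8, Hoxd9 and Hoxd13 had probes that were detected in different numbers of lines.

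**Figure D3:**
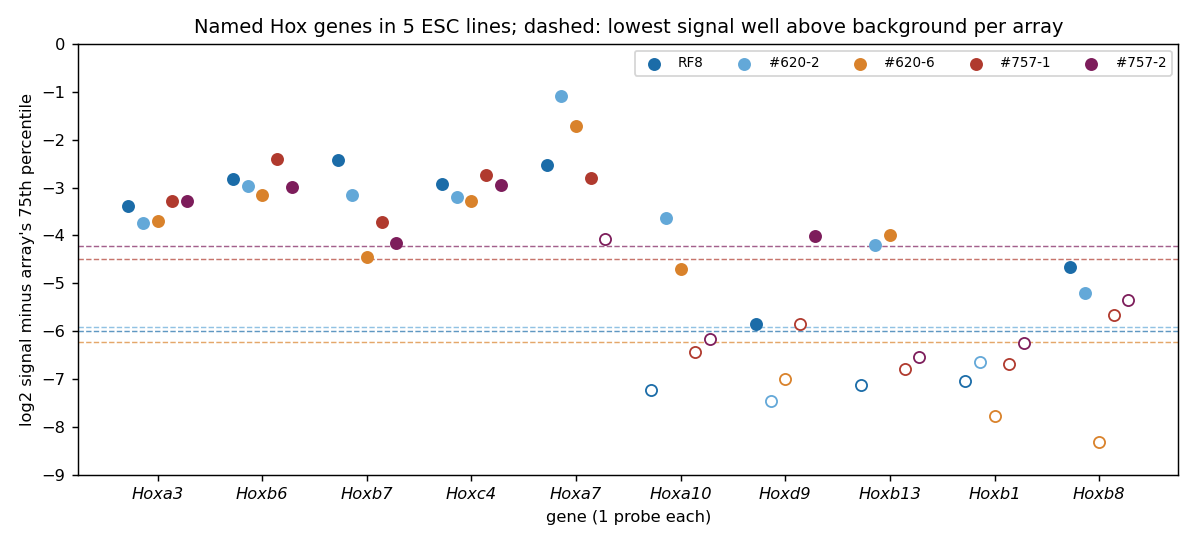
Log2 signal of 10 Hox genes in each of the 5 lines, 1 probe per gene. Filled points were detected and open points were not, and the dashed lines mark the lowest detected signal of each array. Hoxa10 and Hoxb13 have filled points in #620-2 and #620-6 alone, and Hoxb1 has none because its spots over background were marked as outliers and left out of the mean.

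A larger group was detected in #620-2 and #620-6 and in none of the other lines. It held 10 genes, Hoxa2, Hoxa4, Hoxa5, Hoxa6, Hoxa9, Hoxa10, Hoxa11, Hoxb13, Hoxc6 and Hoxc9, of which 7 are Hoxa genes. By probe it was 10 of 49 (20.4%), against 1.61% of all probes. These lines share a line number and the label female and differ in genotype, and the line number and the sex label cannot be told apart here. RF8, on the same slide, had none of the 10 genes detected.
Hoxa10, a posterior gene of uterus and limb patterning, had -7.22 in RF8, -3.64 in #620-2, -4.71 in #620-6, -6.43 in #757-1 and -6.17 in #757-2. Set against the lowest detected signal of RF8, it was at least 5.13-fold higher in #620-2 and at least 2.45-fold higher in #620-6. These bounds compare single arrays of slide 1 and have no test.
Hoxb13, which marks the tail end of the body and the prostate, had -7.12, -4.19, -4.0, -6.80 and -6.54, at least 3.52-fold higher in #620-2 and 4.01-fold higher in #620-6 than in RF8. Hoxc6 had -6.43, -4.22, -4.48, -6.73 and -6.40, with bounds of 3.45-fold and 2.86-fold. Hoxa11 had -8.04, -4.73, -5.02, -6.75 and -6.47, with bounds of 2.41-fold and 1.97-fold. For each of these genes both lines stood clear of RF8 on their slide. Hoxa2, Hoxa4, Hoxa5, Hoxa9 and Hoxc9 had bounds between 1.2-fold and 2.67-fold. Hoxd10 was detected in #620-6 alone, at least 1.32-fold higher than in RF8.
For Hoxa6 the bounds were 1.19-fold and 1.03-fold. RF8 had -6.01 there, at its limit of -6.0, and the signal of #757-1 (-4.98) was higher than that of #620-2 (-5.75) without being detected. The absence of Hoxa6 from the other lines was therefore not resolved at this depth of signal. In #757-1 the undetected signal of Hoxc9 (-5.50) also lay near its detected values (-5.19 and -5.20).
With the common limit, Hoxb13 was still detected in #620-2 and #620-6 alone, and Hoxa10 and Hoxc6 in #620-2 alone. The other genes of the group lay under that limit in both lines, so their absence from slide 2 was not resolved either.

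Hoxa7 was detected in 4 lines, with -2.52 in RF8, -1.09 in #620-2, -1.72 in #620-6, -2.81 in #757-1 and -4.07, not detected, in #757-2. It too was highest in #620-2 and #620-6. Among the 26 Hox probes that were kept for the test between genotypes, 17 (65.4%) were higher in both #620-2 and #620-6 than in each of the other 3 lines, against 18.8% of all kept probes. Of these 17, 10 were kept through #620-2 or #620-6 alone, so their order was partly set by the filter and repeats the detection above. Of the 15 Hox probes that another line also detected, 7 were higher in both, and no share over all probes was computed for that subset. Counts over all 26 include the probes kept through #620-2 or #620-6 alone. They were 8 of 10 for Hoxa, 5 of 9 for Hoxb, 2 of 3 for Hoxc and 2 of 4 for Hoxd.
Other Hox genes did not follow these lines. Hoxd9 was detected in RF8 (-5.85) and #757-2 (-4.01) and not in #620-2 (-7.45), #620-6 (-7.0) or #757-1 (-5.86). Hoxb8 was detected in RF8 (-4.65) and #620-2 (-5.20) and not in #620-6 (-8.31), #757-1 (-5.66) or #757-2 (-5.35).
Hoxb2 and Hoxd1 were detected on slide 1 only, where Hoxb2 had -4.77, -3.24 and -3.86 in RF8, #620-2 and #620-6. Its second probe runs on the opposite strand to the other Hoxb probes and had -4.16, -4.96 and -5.28 in these lines. The 2 probes thus ordered the lines differently. Hoxb1 rested on 1 of the 10 spots of its probe in each line of slide 1, and that spot was marked as an outlier each time.
Hoxd13 was detected in 4 lines by 1 probe (-3.57, -3.51, -3.80 and -3.78, with -4.82 not detected in #757-2) and in none by the other. Both probes of Hoxa13, the most posterior Hoxa gene, were undetected in every line.

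The promoters of Hoxa7, Hoxa10 and Hoxa13 are shown because these genes of 1 cluster were detected in 4 lines, in #620-2 and #620-6 alone, and in no line. Each sequence holds the 250 bases before the start in RefSeq (GRCm38.p6, 5′ to 3′ on the minus strand), with CG pairs in capitals.
Hoxa7, chr6:52218574-52218823: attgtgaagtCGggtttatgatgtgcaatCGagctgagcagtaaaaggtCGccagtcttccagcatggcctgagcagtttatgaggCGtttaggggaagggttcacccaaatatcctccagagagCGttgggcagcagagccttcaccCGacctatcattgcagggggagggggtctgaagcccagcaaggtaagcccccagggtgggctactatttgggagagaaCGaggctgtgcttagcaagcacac
Hoxa10, chr6:52234940-52235189: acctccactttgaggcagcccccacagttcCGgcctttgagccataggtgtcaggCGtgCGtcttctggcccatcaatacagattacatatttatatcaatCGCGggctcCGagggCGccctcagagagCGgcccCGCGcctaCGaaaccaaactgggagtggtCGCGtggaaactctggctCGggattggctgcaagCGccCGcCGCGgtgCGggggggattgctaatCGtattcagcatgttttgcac
Hoxa13, chr6:52260881-52261130: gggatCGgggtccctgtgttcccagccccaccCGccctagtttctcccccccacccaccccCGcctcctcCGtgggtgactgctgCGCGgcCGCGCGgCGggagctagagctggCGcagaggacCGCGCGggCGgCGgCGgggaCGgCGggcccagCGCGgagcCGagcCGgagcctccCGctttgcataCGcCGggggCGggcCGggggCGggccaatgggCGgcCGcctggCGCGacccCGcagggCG
They held 7, 20 and 35 CG pairs. The table lists a second start for Hoxa10 with 7 CG pairs, so the step from Hoxa7 to Hoxa10 depends on the start shown. A promoter was listed for 22 of the 38 genes, with 24 starts in all. The median was 12.5 CG pairs over these 24 starts and 6 over the 32851 promoters of the table. It was 13 (3 to 31) for the 16 starts of genes detected in at least 1 line and 11 (2 to 35) for the 8 starts of the others, so the ranges overlapped. TTTATG, read on both strands and close to the site that Cdx proteins bind, was in 5 of the 24 (20.8%) and in 10.8% of all promoters, and lay in 2 places in Hoxa7 and in none in Hoxa10 or Hoxa13. AGGTCA, the half-site of retinoic acid receptors, was in 6 (25%) and in 14% of all, and in none of the promoters shown. TATAAA was in 4 (16.7%) and in 12.4% of all.

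The genotypes were compared to ask whether loss of ECAT11 moved the Hox genes. In limma, no Hox probe was past both 2-fold and an adjusted p of 0.05, out of 26 tested, and 1 did so without adjustment. Of all 28971 kept probes 0.00345% passed with adjustment. Without adjustment 2.33% were higher and 1.00% lower in ECAT11EGFP/EGFP ESCs.
The one Hox probe was that of Hoxb7. RF8 had -2.43, #620-2 -3.16, #620-6 -4.44, #757-1 -3.72 and #757-2 -4.16. All 3 ECAT11EGFP/EGFP lines lay below both wild-type lines. The means were -2.80 ± 0.52 (SD, n = 2) and -4.11 ± 0.36 (SD, n = 3), a difference of -1.31 ± 0.34 (SE) with an adjusted p of 0.496 in limma. Within slide 1, #620-6 lay 1.28 below #620-2 and #620-2 0.74 below RF8, so the wild-type lines also differed from each other. Slide 2 held no wild-type line, so with the slide as a block #620-6 alone was compared with RF8 and #620-2. The difference was then -1.65. Over all alternatives the lowest adjusted p was 0.206, in limma with the sex label as a covariate.
Hoxb8 and Hoxd13 were the other 2 kept probes whose groups did not overlap, both lower in ECAT11EGFP/EGFP ESCs, and no kept Hox probe was higher without overlap. The 3 make 11.5% of the 26, against 12.4% of all kept probes lower and 11.2% higher without overlap. The share of lower Hox probes was therefore near that of all probes. Hoxb8 was detected in both wild-type lines and in no ECAT11EGFP/EGFP line, at least 1.04-fold higher in wild-type ESCs, since its signals in #757-1 and #757-2 lay under a high limit.

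**Figure D4:**
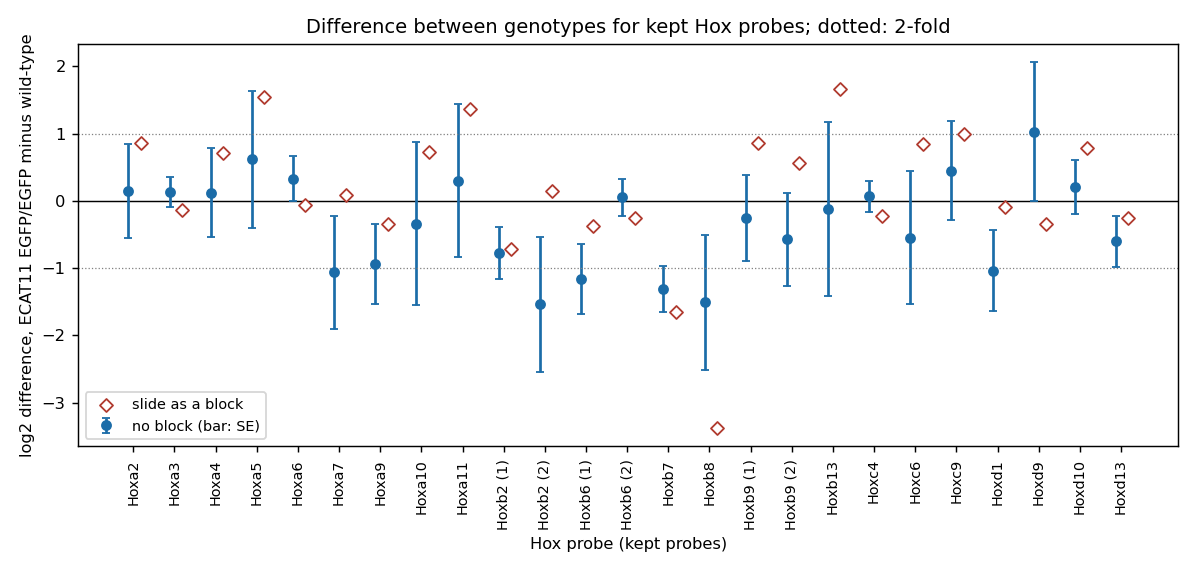
Log2 difference between ECAT11EGFP/EGFP and wild-type lines for kept Hox probes, in order of cluster and paralogue group. Filled points show the fit without a block, with SE bars, and open diamonds the fit with the slide as a block. Hoxb7 is the single probe past 2-fold at an unadjusted p under 0.05.

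The median difference over the 26 kept Hox probes was -0.30, with 11 higher and 15 lower, against -0.02 over all kept probes. With the slide as a block it was 0.04, with 14 higher and 12 lower, so the sign depended on the block. By cluster the medians were 0.13 for Hoxa (10 probes), -0.78 for Hoxb (9), 0.07 for Hoxc (3) and -0.19 for Hoxd (4). With the block they were 0.40, -0.26, 0.84 and -0.18. By paralogue group they were -0.26 for anterior (8), -0.81 for central (8) and -0.19 for posterior probes (10), and -0.05, -0.17 and 0.75 with the block. The difference between clusters or paralogue groups was not tested.
Over all 49 Hox probes without a filter the median was 0.12, against 0.11 over all probes. The 22 probes detected in no line had a median of 0.80, and the 12110 such probes of the whole array one of 0.96. Signals under the limit were higher on slide 2, which held ECAT11EGFP/EGFP lines only, and with all values raised to the common limit these 22 probes had a difference of 0.

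Hox proteins bind DNA with the cofactors Pbx, Meis and Pknox. Of the 9 cofactor genes 6 were detected in all 5 lines, and 0 of 16 kept probes passed the test between genotypes. At an unadjusted p 1 was higher, against 2.33% of all kept probes. Meis2 had -1.61 in RF8, -0.85 in #620-2, 0.57 in #620-6, -0.93 in #757-1 and -1.72 in #757-2, with #620-6 highest. Meis1 was highest in #757-2 (-2.60), with -5.07, -4.48, -4.03 and -5.17 in the other lines. With 1 probe Pknox2 had -6.06, -5.30, -3.74, -5.03 and -4.52 and was detected in #620-2 and #620-6 alone. Its genotype difference was 1.25 with an unadjusted p of 0.0493 and an adjusted p of 0.654 in limma, and another of its probes was lower in ECAT11EGFP/EGFP ESCs (-0.54), so the probes had opposite directions.

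Of 19 measured Cdx, retinoic acid and other upstream genes, 12 were detected in all 5 lines. In limma 0 of 23 kept probes passed. At an unadjusted p 1 was higher (Cyp26a1) and 3 lower (2 of Dhrs3 and 1 of Rxrg). Of all kept probes 2.33% were higher and 1.00% lower in this way. Stra8, a gene known for its response to retinoic acid in germ cells, had 0.06, 4.16, 3.32, -1.15 and 0.16 in RF8, #620-2, #620-6, #757-1 and #757-2. It was highest in #620-2 and #620-6. Rxra, a partner of the retinoic acid receptors, had -0.29, 1.21, 1.22, 0.25 and 0.41. In all, 6 of the 19 genes were higher in both #620-2 and #620-6 than in the other 3 lines. Of all kept probes 18.8% were higher in both of those lines, a share by probe and not by gene. Egr2, which acts on Hox genes in the hindbrain, had -2.25, -3.88, -4.33, -2.56 and -2.97, lowest in those lines.
Cdx1 was detected in #620-2 alone (-5.88), with -5.65 under the limit in #757-1. Both probes of Dhrs3, a retinaldehyde reductase, were lower in every ECAT11EGFP/EGFP line than in the wild-type lines, with differences of -1.61 and -1.55 and adjusted p of 0.289 and 0.287 in limma. Rxrg, a retinoid X receptor, had a difference of -1.28 and an adjusted p of 0.384. Cyp26a1, which breaks down retinoic acid, had a difference of 1.13 and an adjusted p of 0.642.

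The trithorax group, which keeps Hox genes active, was detected throughout, with all 8 measured genes above background in all 5 lines and 0 of 15 kept probes passing. Wdr5 had 2.78, 3.74, 3.54, 2.98 and 3.04 in RF8, #620-2, #620-6, #757-1 and #757-2. With their brightest probes, Ash1l ranged over 0.81 and Rbbp5 over 0.65 between lines.
Genes beside the clusters were measured to see whether a change reached past the Hox genes. Of 14 such genes 11 were detected in all 5 lines, and 0 of 28 kept probes passed. Against 2.33% of all kept probes, 2 were higher at an unadjusted p. These were the 2 probes of Calcoco2, which encodes an autophagy receptor and lies near Hoxb. The brighter had 2.41, 2.36, 5.43, 4.16 and 4.58 and each ECAT11EGFP/EGFP line lay above both wild-type lines, with a difference of 2.34 and an adjusted p of 0.383 in limma. Ttll6, its neighbour, had -2.47, -0.64, -0.02, -1.0 and -0.66 and was lowest in RF8. Evx1, at the end of Hoxa, had -5.36, -5.57 and -3.58 on slide 1, highest in #620-6, and was not detected on slide 2.

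Of 13 other homeobox genes measured, 6 were detected in all 5 lines and 0 of 10 kept probes passed. Against 2.33% of all kept probes, 1 was higher at an unadjusted p, Msx2 (1.13, adjusted p of 0.475 in limma). Dlx1 and Dlx2, which pattern the forebrain and face and lie on the chromosome of Hoxd, were widest between lines. Dlx1 was detected in #620-2 (-3.44) and #620-6 (-3.50) alone, at least 5.91-fold and 5.67-fold higher than in RF8. Dlx2 had -4.33, -1.90, -2.01, -5.49 and -6.14, highest in the same lines. Otx2, a head gene of the epiblast, had 1.99, -0.11, -0.53, 0.76 and 0.91 and ran the other way.

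Other cell types could carry Hox transcripts, so their markers were set beside the lines. In bulk RNA, fewer cells of a type and less RNA per cell cannot be told apart. Of 12 fibroblast markers, 9 were detected in all 5 lines, with 11, 12, 12, 9 and 10 in RF8, #620-2, #620-6, #757-1 and #757-2. Their linear signals, as multiples of the 75th percentile, added up to 17.2, 16.3, 16.5, 3.57 and 6.15 in the same order. The sum was higher on slide 1, including RF8, and weighs the brightest markers most. Single markers were uneven, and 8 of the 12 were higher in both #620-2 and #620-6 than in each other line. Of all kept probes 18.8% were, a share by probe and not by gene. Fbln2 had -1.59, 2.33, 2.46, -1.87 and -1.54, and Prrx1, a gene of limb mesenchyme, had -5.51, -2.16, -2.07, -6.27 and -6.23. Col1a1 was instead highest in RF8 (2.97), with 0.80 in #620-2 and 0.56 in #620-6. Col1a2 was too (2.51), with 1.62 in #620-2 and 1.54 in #620-6. Together they made up most of the RF8 sum. Lum was not detected in RF8, #757-1 or #757-2. The part of these cells in the Hox values was not tested.

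**Figure D5:**
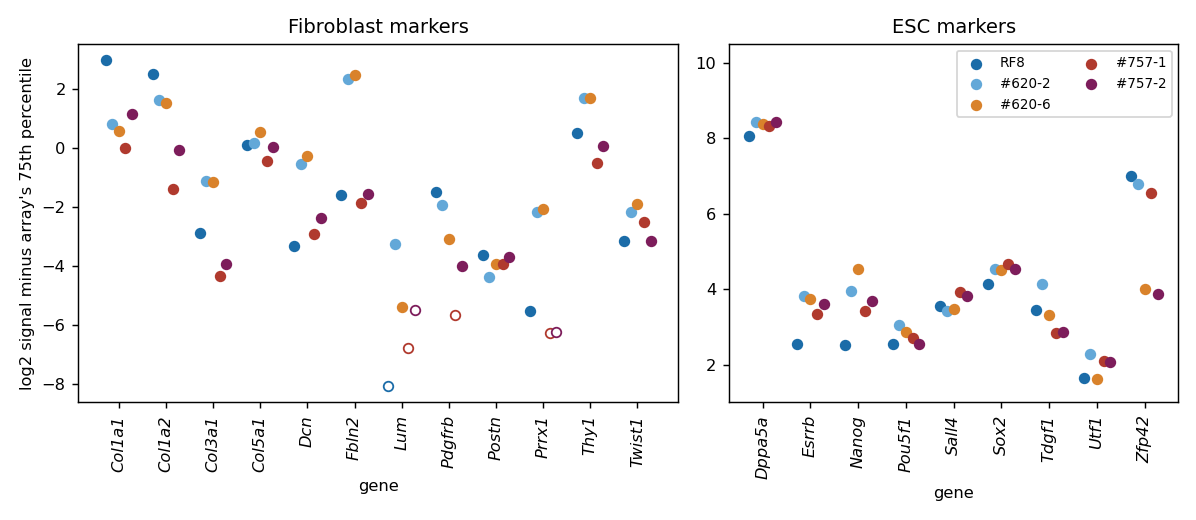
Log2 signal of the brightest probe of each fibroblast marker on the left and each ESC marker on the right, in the 5 lines. Filled points were detected and open points were not. Fbln2, Prrx1, Dcn and Thy1 are higher in #620-2 and #620-6 than in the other lines.

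The 6 endoderm markers had a summed signal of 0.28, 1.02, 1.02, 0.388 and 0.348. Of them 4 were also highest in both #620-2 and #620-6, against 18.8% of all kept probes, again a share by probe and not by gene. No marker of posterior mesoderm or of neural cells was, and 1 of 6 primitive streak and 1 of 6 trophoblast markers was (Eomes, on both lists). The primitive streak sum ran from 0.679 to 0.803. With their brightest probes, 3 of the 9 ESC markers, Nanog, Esrrb and Pou5f1, were highest in #620-2 and #620-6. Nanog had 3.95 and 4.53 there against 2.53 in RF8. Sox2 (4.66) and Sall4 (3.94) were highest in #757-1. Zfp42 had 7.0, 6.79, 4.0, 6.55 and 3.87, lowest in #620-6 and #757-2. The part of these differences in the Hox values was not tested.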

How the data were processed

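Total RNA of 5 lines was labelled with Cy3. The authors extracted the scans with Feature Extraction 9.5.3.1, per the file headers, and deposited background-corrected intensities, not normalized between arrays, and flag columns. They also deposited a table of log2 values centred by probe, whose differences between arrays followed the scanner's (slope 0.999, r = 0.99947 over 20649 probes). Control spots were left out (1639 of 45018), and spots marked as outliers (0.335%) were set missing. Each intensity was divided by the array's 75th percentile, put on the log2 scale and averaged over the spots of a probe. No spot was saturated. Detection used the well-above-background flag of any spot. Probes that passed it without an outlier mark on at least 1 array were kept.

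Genotypes were compared over all kept probes with limma 3.58.1 in R 4.3.3, with Benjamini-Hochberg adjustment, at an adjusted p of 0.05 and 2-fold. The code was tested on simulated data. Each line is 1 culture, so p-values measure the spread between lines. Where a line had not detected a probe, a fold is a lower bound against the higher of that array's lowest detected signal and the probe's own.

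Some values are included in counts and medians but not reported singly here. The members and gene lists were chosen with earlier results of these data known. Genes named were Hox genes detected in all 5 lines by a probe, the 6 others widest between lines, those at an unadjusted p under 0.05 and 2-fold, the 3 widest of each other list, and marker genes. Others were named after their values were seen. Symbols and promoters came from RefSeq tables (GRCm38.p6). Probe positions are mm7, so no coordinate was carried between them. A RefSeq accession matched the table for 44 of 49 Hox probes.

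Alternatives were normexp background correction (offset 50), quantile scaling, the authors' log2 table, other filters, outlier spots kept, blocks for slide or sex label, a trended variance, the methods' t-test, each line left out, other detection rules and another anterior boundary. Raising values to a common limit was chosen after seeing the data.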

Additional observations from a re-analysis of the deposited data

How the results depend on the processing

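No Hox probe, cofactor, upstream or neighbour probe passed the adjusted test under any of the alternatives run. No paired analysis was possible because #620-2 and #620-6 are the 1 pair of lines with a shared line number across genotypes. The number of all probes called was 1. It was 0 with normexp, with quantile normalization, without a filter, with the slide as a block, with the sex label as a covariate and with the methods' t-test, and 3 with the stricter filter and with values raised to the common limit. It was 0 to 0 with 1 line left out. Unadjusted calls among all probes numbered 966, and ran from 258 with normexp to 1826 without a filter. Hox probes at an unadjusted p under 0.05 and over 2-fold numbered 0 with normexp, 4 without a filter (3 of them higher and detected in no line), 2 with the slide as a block and 3 with the sex label, and 1 to 4 with 1 line left out (4 without #620-6 and 2 without #620-2). Without #620-2 or without RF8 the lone wild-type line is assumed to vary like the others. The same is assumed of #620-6 with the slide as a block, since the lines of slide 2 do not enter that difference.

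The median over all 49 Hox probes without a filter was -0.09 with the slide as a block. For Hoxb it was -0.10 with normexp, -0.26 with the slide as a block and -0.04 with the common limit. For Hoxd it was 0.48 without a filter and -0.60 with the stricter one. For central probes it was -0.08 with normexp, 0.05 without a filter, -0.17 with the slide as a block and 0 with the common limit, and for posterior probes 0.75 with the slide as a block. With 1 line left out the medians ran from -0.84 (without RF8) to 0.76 (without #620-2) for Hoxa, from -0.75 to -0.09 for anterior and from -1.09 to -0.18 for central probes.

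Detected Hox genes in RF8, #620-2, #620-6, #757-1 and #757-2 rose to 31, 32, 36, 16 and 15 with the positive-and-significant flag. That flag passed 77.4%, 76.9%, 79.5%, 69.4% and 67.7% of all probes. Hoxa then had 9, 10 and 11 of 11 genes in RF8, #620-2 and #620-6, so RF8 lay near these lines with that flag. With the common limit the counts fell to 12 in #620-2 and 9 in #620-6.

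The genotype difference changed sign with the slide as a block for Hoxa3 (-0.14), Hoxa7 (0.09), Hoxa10 (0.72), Hoxb6 (-0.26), Hoxb13 (1.66), Hoxc4 (-0.23) and Hoxd9 (-0.35). It did so too for Hoxa6 (-0.07), Hoxc6 (0.84), both probes of Hoxb9 (0.86 and 0.56) and 1 of Hoxb2 (0.15). By gene, the other alternatives were followed for a part of the named Hox genes. Among these, the genotype difference also changed sign with the sex label for Hoxa10 (0.07), Hoxb6 (-0.01) and Hoxb13 (0.34). For Hoxb13 it also did with normexp (0.01) and with the common limit (0.06). With 1 line left out it ran from -2.13 to 1.46 for Hoxa10, -1.59 to 1.35 for Hoxb13, -0.05 to 0.31 for Hoxa3, -0.18 to 0.20 for Hoxb6 and -0.06 to 0.22 for Hoxc4. The cause was not tested. Hoxb7 kept its direction throughout, from -1.68 to -0.65. Weak signals limit the detection of Hox genes on slide 2.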

Other observations

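Within the span of the Hox probes, 10 other probes of the array lie among the genes, 5 in Hoxa, 2 in Hoxb, 1 in Hoxc and 2 in Hoxd. Of these, 9 were detected in no line. The remaining one, named Hoxaas2 in RefSeq, runs against the Hoxa genes. It was detected in #620-2 alone, at -2.19, with undetected signals of -8.25 in RF8, -8.39 in #620-6, -6.74 in #757-1 and -6.48 in #757-2. It was at least 14-fold higher in #620-2 than in RF8. This is 1 spot on 1 array and was named after its values were seen. The Hoxa genes that #620-2 and #620-6 shared did not share this signal.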
